A study of Danio rerio with 2 samples.

Results

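Accessible sites that lay close together in the interior of the zebrafish chromosomes made up 178 of the 380 peaks of replicate 1 (46.8%, Wilson interval 41.9 to 51.9) and 379 of the 1096 peaks of replicate 2 (34.6%, Wilson interval 31.8 to 37.4). A peak counted as clustered and interior when its summit was more than 5 Mb from both ends of chromosomes 1 to 25 and another peak of the same replicate started at most 10 kb from its own start. The other peaks of replicate 1 were 126 isolated interior peaks and 76 peaks nearer to a chromosome end, and those of replicate 2 were 462 and 255. Members were chosen by the positions of the called peaks and by no other value, so their number and closeness are a description and were not tested. The share depends on that rule: with neighbours at most 1 kb away it was 27.9% in replicate 1 and 21.4% in replicate 2, and with peaks within 1 kb merged first it was 30.03% and 18.2%. The end of each chromosome was set at the last base covered by a peak in either replicate.

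Both replicates were ATAC-seq libraries of whole wild-type embryos of zebrafish (Danio rerio) of the AB/PS strain, aged 2.5 hours after fertilization, which is the 256-cell stage. All embryos had their chorions taken off with pronase and their yolk removed, 75000 cells entered each library, and no allele or agent is named. There was 1 group of 2 biological replicates, so every comparison below is between replicates or between classes of peaks in a replicate. Replicate 1 kept 5123112 tags after duplicates were removed and replicate 2 kept 5586367, a ratio of 0.917 for replicate 1 over replicate 2. Nothing in the labels says whether the replicates came from separate clutches.

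ATAC-seq marks DNA that is free enough of nucleosomes for the Tn5 transposase to insert sequencing adapters. In the early zebrafish embryo the nuclei divide fast and live on maternal RNA, and broad transcription of the zygotic genome begins later. Around that transition the pioneer factors Pou5f3, Sox19b and Nanog are known to open chromatin at many regulatory elements. Promoters and enhancers often lie in groups along a chromosome, and a MACS peak table can also break a single broad accessible stretch into several neighbouring peaks. Positions are those of the Zv9 build, which the submitters' processing notes name. No Zv9 gene annotation was used here, so the sites are given without genes, exons or introns.

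The member peaks of replicate 1 formed 62 clusters on 22 chromosomes, when peaks with starts at most 10 kb apart were chained, and those of replicate 2 formed 122 clusters on all 25 chromosomes. Most clusters were small. In replicate 1, 31 clusters had 2 peaks, 17 had 3 and 13 had 4 or more, the largest holding 7, while 1 member stood alone because its neighbour lay outside the interior. In replicate 2, 65 clusters had 2 peaks, 24 had 3 and 33 had 4 or more, the largest holding 10. The clusters of 4 or more peaks held 64 of the 178 members of replicate 1 and 177 of the 379 members of replicate 2.

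Clusters spanned a median of 2313 bp in replicate 1 (quartiles 1207 and 6664, highest 19962) and 1642 bp in replicate 2 (quartiles 705 and 7301, highest 38778). The peaks covered a median of 25.5% of that span in replicate 1 and 40.0% in replicate 2. Neighbouring starts were a median of 869 bp apart in replicate 1 (quartiles 387 and 3121) and 973 bp apart in replicate 2 (quartiles 392 and 3125). The rule sets the upper limit of these distances. The medians were 394.5 bp in replicate 1 and 398.5 bp in replicate 2 with neighbours at most 1 kb away, and 4725 and 4180 bp with peaks within 1 kb merged first. Spacings of 1 kb or less made up 62 of 116 neighbouring pairs in replicate 1 (53.4%) and 132 of 257 in replicate 2 (51.4%). Spacings above 5 kb made up 24 pairs in replicate 1 (20.7%) and 43 in replicate 2 (16.7%). Counted by cluster, 21 of the 62 in replicate 1 and 57 of the 122 in replicate 2 were short runs with no spacing above 1 kb. The others held a longer spacing, apart from the member that stood alone in replicate 1. Spacing inside the larger clusters was uneven. Over clusters of 4 or more peaks, the SD of the spacings was a median of 0.722 times their mean in replicate 1 (13 clusters) and 0.739 times in replicate 2 (33 clusters).

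**Figure D1:**
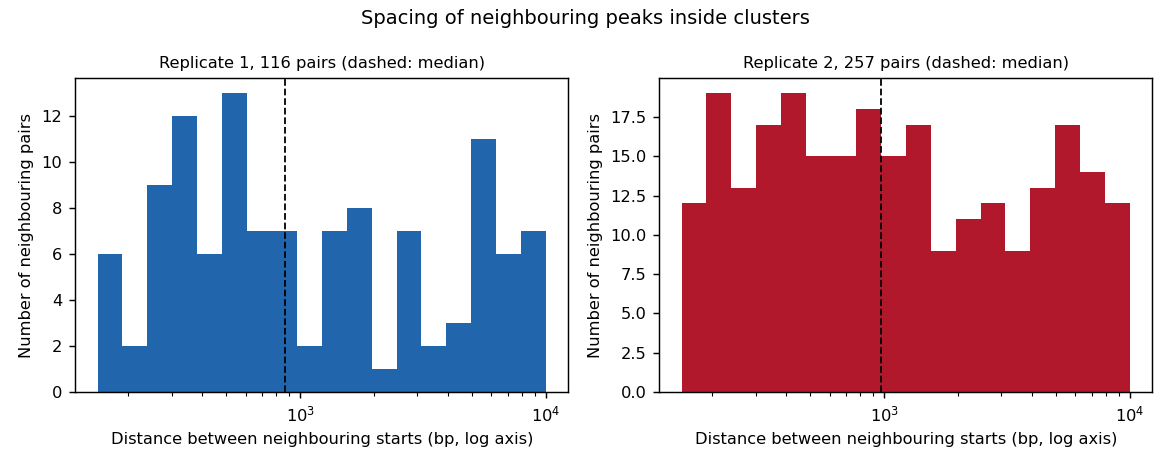
Distance in bp between the starts of neighbouring peaks inside a cluster (x axis, log scale) against the number of neighbouring pairs (y axis), for replicate 1 (left) and replicate 2 (right), with the median as a dashed line. The medians are 869 and 973 bp, and pairs lie over the whole range from under 200 bp to the 10 kb limit of the rule.

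Ranked by the replicate that had fewer members there, the first cluster was at chr7:64238385-64250986, with 7 peaks in each replicate. In replicate 1 its pileups, the number of extended tags over each summit, were 25, 29, 62, 87, 61, 64 and 68 tags along the chromosome. In replicate 2 they were 34, 31, 40, 65, 73, 105 and 91 tags. The file headers name the alignments as paired while tags were read in single-end mode, so both ends of a fragment may count as tags here and in all pileups and tag densities. The low peaks stood at the low-coordinate end in both replicates, and the highest one, 87 tags in replicate 1 and 105 in replicate 2, had summits 6 bp apart. The last 3 peaks of replicate 1 all overlapped a single replicate 2 peak of 1114 bp, so the equal numbers do not mean the same set of calls.

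The cluster at chr2:19008730-19028246 had 6 peaks in replicate 1, with pileups of 28, 40, 33, 34, 33 and 38 tags. It had 8 in replicate 2, with 45, 41, 49, 51, 46, 42, 41 and 51 tags. All 6 replicate 1 peaks met a replicate 2 peak, and the heights of the replicates did not overlap, the lowest replicate 2 value being 41 tags and the highest replicate 1 value 40. The cluster on chromosome 8 at chr8:35907786-35921936 had 7 peaks of 37 to 49 tags in replicate 1 and 6 peaks of 45 to 75 tags in replicate 2. Each of its peaks in either replicate met a peak of the other.

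At chr10:16737251-16752586 replicate 1 had pileups of 35, 57, 87, 61, 50 and 74 tags, and replicate 2 had 49, 75, 108, 74 and 87. The replicate 1 peaks with 87 and 61 tags met the same replicate 2 peak, and the order of heights along the other sites was the same in both. At chr23:7821553-7823026 the 4 pileups were 35, 52, 31 and 35 tags in replicate 1 and 33, 45, 25 and 28 tags in replicate 2. At chr10:12046200-12050451 they were 42, 56, 42 and 60 tags in replicate 1 and 41, 52, 42 and 68 tags in replicate 2. These last clusters had the same number of peaks in both replicates, each with a partner, and replicate 1 was higher at all 4 peaks on chromosome 23.

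Other large clusters held more peaks in replicate 2. At chr2:18573448-18595379 replicate 1 had 4 peaks (37, 42, 67 and 58 tags) and replicate 2 had 9 (34, 49, 61, 63, 90, 76, 51, 38 and 36 tags). The 4 replicate 1 peaks were at the 4 highest replicate 2 sites, with 61, 63, 90 and 76 tags there. At chr8:36377626-36408583 the numbers were 4 and 9 peaks, at chr21:25236851-25255738 they were 4 and 6, at chr8:45703184-45723193 they were 4 and 5, and at chr2:18988289-18996668 they were 3 and 6. In the first of these, the replicate 2 peaks with 66 and 64 tags in the middle of the cluster had no replicate 1 partner. At chr11:15193256-15195509 replicate 1 had 5 peaks of 34 to 38 tags and replicate 2 had 4 peaks of 30 to 43 tags.

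**Figure D2:**
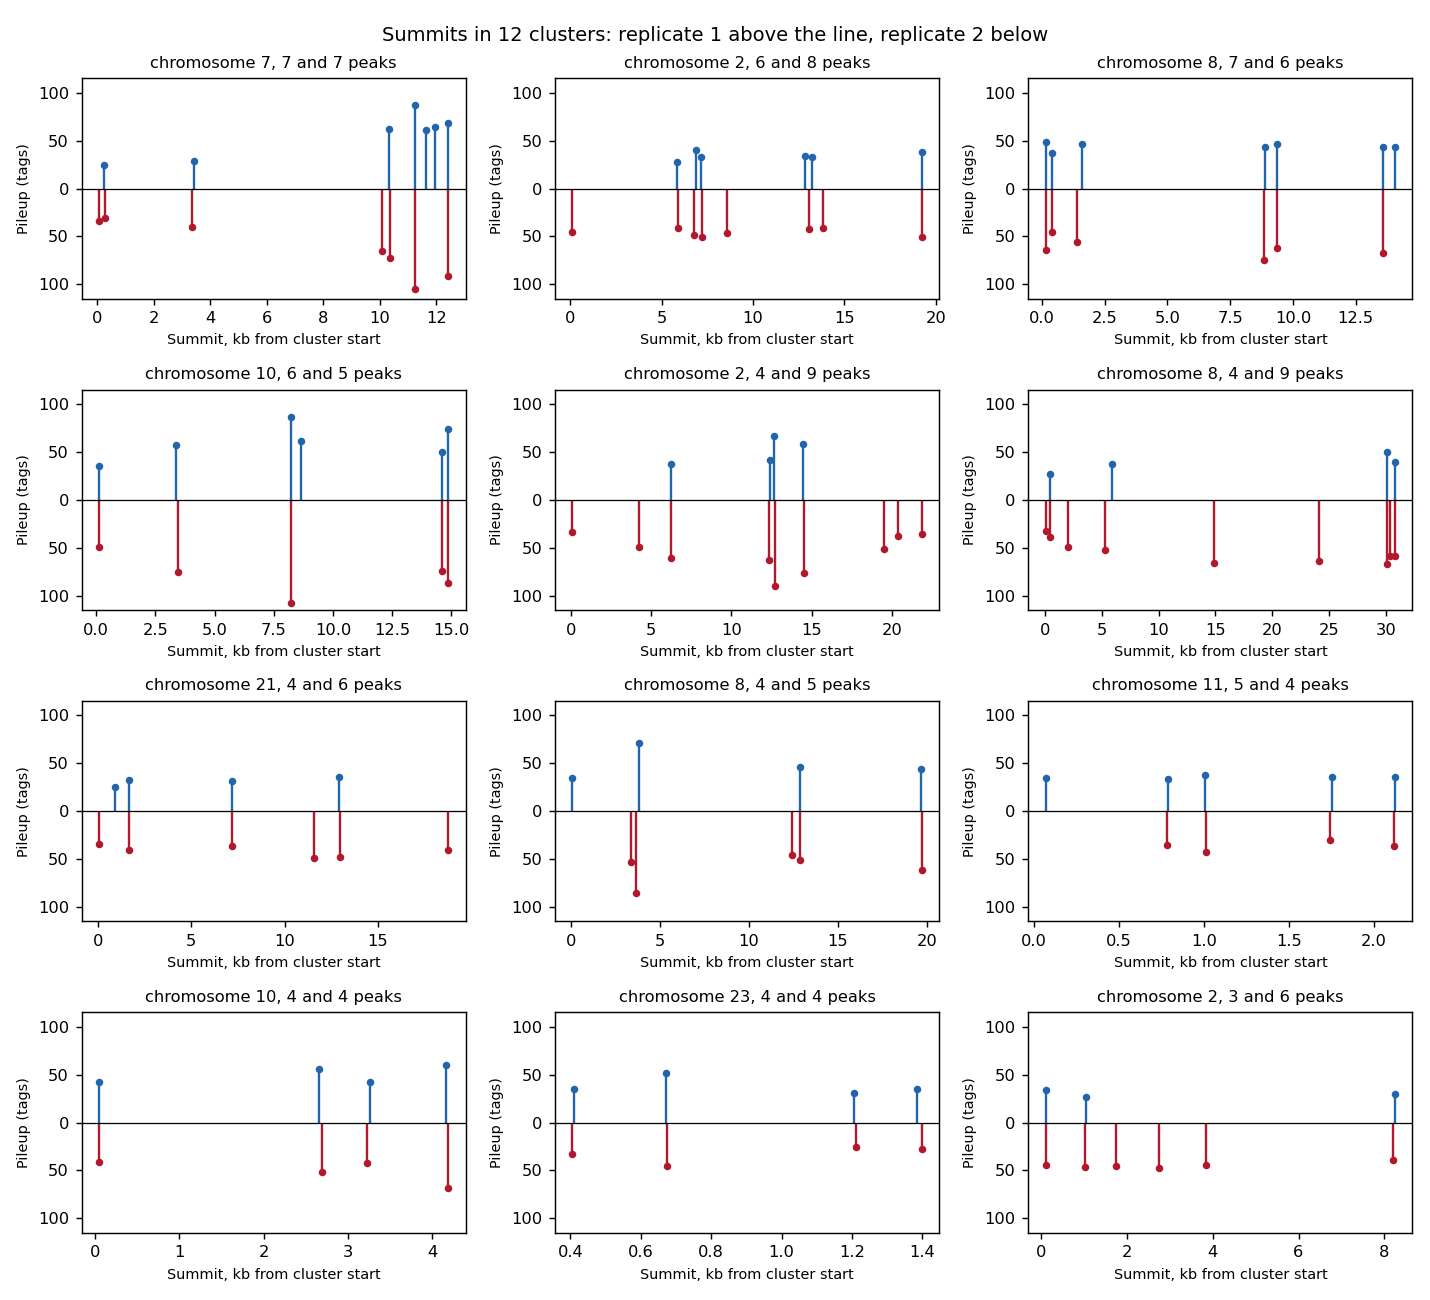
Summit positions in kb from the start of each of the 12 clusters with the most peaks in the replicate that had fewer (x axis) against pileup in tags (y axis), with replicate 1 drawn upward in blue and replicate 2 downward in red. Many summits stand opposite each other, and the added replicate 2 summits are seen on chromosome 2 (4 and 9 peaks) and chromosome 8 (4 and 9 peaks).

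Replicate 1 members whose replicate 2 partner was also a member were ranked by the lower of both pileups. The highest was the chromosome 7 peak with 87 and 105 tags. It was followed by chr10:16745328-16745745 with 87 tags in replicate 1 and 108 in replicate 2. Next came chr24:11726472-11727826 (86 and 87 tags), chr24:11736763-11737967 (91 and 86) and chr24:11694956-11695814 (84 and 81). The first 2 of these 3 were also the longest members of replicate 1, at 1355 and 1205 bp. The first was split in replicate 2 into 2 peaks of 639 and 674 bp, with 73 and 87 tags. The longest member of replicate 2, at 1213 bp, was the partner of the chr24:11736763-11737967 peak. The remaining 5 high peaks were at chr16:16637382 (77 and 79 tags), chr16:16638744 (76 and 76), chr17:40106707 (75 and 96), chr10:16751975 (74 and 87) and chr7:66048738 (76 and 73). Not ranked here were replicate 2 members whose replicate 1 partner was not a member. Among them were chr17:43027483-43028492 (86 tags, partner 91 tags) and the taller of 2 members at chr11:35982462-35983109 (97 tags). At the chr7:66048738 site the flanking peaks were lower, with 34 and 40 tags against 76 in replicate 1. In replicate 2 the flanking peaks had 35 and 45 tags against 73. The flanks on the low-coordinate side were different sites. The replicate 1 peak of 34 tags overlapped the replicate 2 peak of 73 tags, and the replicate 2 peak of 35 tags had no partner.

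Member peaks had higher median pileups than isolated peaks and lower median enrichments over their surroundings. Pileup had a median of 35 tags for clustered and 20 tags for isolated interior peaks in replicate 1 (quartiles 29 and 47.8 against 14.2 and 33). In replicate 2 the medians were 36 and 13 tags (quartiles 23 and 51 against 11 and 18). Fold enrichment, which divides pileup by the tag density that the same library has around the peak, ran the other way. Its medians were 5.24 for clustered and 7.15 for isolated peaks in replicate 1, and 4.995 and 6.68 in replicate 2. The ranges of clustered and isolated peaks overlapped widely for both measures. No test was made, because neighbouring peaks are not independent and there is 1 library per replicate.

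The 51 peaks of replicate 1 with the highest pileup (the first 50 with a tie, 13.4% of its peaks) included 31 members, and the 50 with the highest fold enrichment (13.2%) included 7. In replicate 2 the 50 with the highest pileup (4.56%) included 38 members and the 50 with the highest fold enrichment (4.56%) included 8. Peak length differed less than pileup. Its median was 198.5 bp for clustered and 171 bp for isolated peaks in replicate 1, and 194 and 165 bp in replicate 2. Peaks near chromosome ends had median pileups of 22 and 15 tags and median fold enrichments of 7.78 and 6.88 in replicates 1 and 2. These values were nearer to the isolated than to the clustered peaks. However, peaks near ends were not split by the distance to a neighbour. The median number of summits within 5 kb of theirs, their own included, was 1 in both replicates.

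The number of tags in the 10 kb around each summit is tied to both measures. It can be recovered from pileup and fold enrichment, so a higher pileup with a lower fold enrichment means more tags by arithmetic. It is given here as a multiple of the library's own genome mean. It includes the tags of the peak and of any neighbour in the window, so clustering itself adds to it. Its median was 11.1 times the mean around clustered and 3.05 times around isolated peaks in replicate 1. In replicate 2 it was 10.5 and 1.74 times. At least 4 times the mean was reached by 162 of 178 members in replicate 1 (91.0%, against 64.2% of all its peaks) and by 300 of 379 in replicate 2 (79.2%, against 38.4% of all its peaks). Of the isolated peaks, 50 of 126 reached it in replicate 1 and 65 of 462 in replicate 2. The highest member values, 56.0 times in replicate 1 and 48.7 times in replicate 2, were in the cluster at chr16:16637092-16640335. There the 4 replicate 1 peaks had 68, 77, 76 and 76 tags and fold enrichments of only 2.17 to 2.62.

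**Figure D3:**
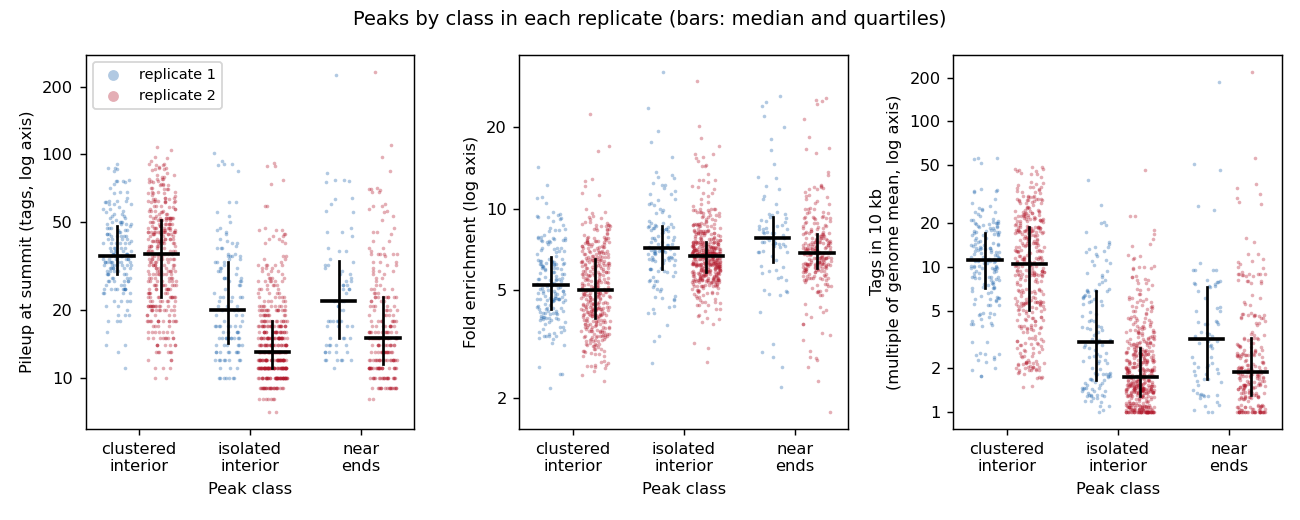
Pileup in tags, fold enrichment and tag number in 10 kb as a multiple of the genome mean (y axes, log scale) for clustered interior peaks, isolated interior peaks and peaks near chromosome ends (x axis), with replicate 1 in blue, replicate 2 in red, each dot a peak and black bars for median and quartiles. Clustered peaks have the highest median pileup (35 and 36 tags) and tag density (11.1 and 10.5 times the mean) and the lowest median fold enrichment (5.24 and 4.995).

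The listed summits held a minor part of these tags. Tags elsewhere inside the same peaks are not counted here, so these values do not give the part that lies within peaks. The pileups of all peaks with summits within 5 kb of a member summit added up to a median of 23.9% of the tags in its 10 kb window in replicate 1 and 23.7% in replicate 2, with tags that cover 2 summits counted at each. For isolated peaks, the single summit held a median of 17.6% and 18.7%. Taken alone, the summit of a clustered peak held less, a median of 8.69% in replicate 1 and 8.30% in replicate 2. When peaks were split at 4 times the mean density, the classes were closer in height. In windows of at least 4 times the mean, median pileup was 37 tags for clustered and 34.5 for isolated peaks in replicate 1, and 43 and 27 tags in replicate 2. Below 4 times the mean the medians were 19 and 15 tags in replicate 1, and 17 and 13 in replicate 2. Fold enrichment had a lower median for clustered than for isolated peaks in dense windows only. Its medians in dense windows were 5.04 for clustered and 5.91 for isolated peaks in replicate 1, and 4.49 and 5.23 in replicate 2. Below 4 times the mean they were 8.10 for only 16 clustered and 7.59 for 76 isolated peaks in replicate 1, and 6.80 for both classes in replicate 2. The quartiles of the classes overlapped at both densities in both replicates. Density still differed within these strata, for example a median of 11.7 times around clustered and 7.70 times around isolated dense-window peaks in replicate 1. How far tag density accounts for pileup or for clustering was not tested.

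The medians of pileup and density were higher in larger clusters. Members of clusters of 2, 3 and 4 or more peaks had median pileups of 31.5, 34 and 41 tags in replicate 1 and of 21, 32 and 47 tags in replicate 2. Their median tag densities were 7.41, 11.2 and 12.9 times the mean in replicate 1 and 3.70, 8.72 and 17.8 times in replicate 2. Median fold enrichment ran down the same order, with 6.28, 5.33 and 4.89 in replicate 1 and 6.37, 5.04 and 4.09 in replicate 2. Tag density is computed from pileup and fold enrichment, so these orders are not separate findings. Peaks of the same cluster were alike in height. The higher of 2 neighbours had a median of 1.22 times the pileup of the lower in replicate 1 (116 pairs) and 1.205 times in replicate 2 (257 pairs), and the highest peak of a cluster had a median of 1.32 and 1.35 times the pileup of the lowest. Differences between clusters made up 66.2% of the variance of log2 pileup in replicate 1 and 78.8% in replicate 2, adjusted for the number of clusters. Neighbours share most of their 10 kb window, and the tags of close summits can be shared too. Peaks were also called against the local density, so a peak in a dense window had to be taller to be listed. The lowest pileup in windows of at least 4 times the mean was 17 tags in both replicates. Below that density it was 10 tags in replicate 1 and 7 in replicate 2. How far this sets the order by cluster size or the likeness within clusters was not tested.

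Members were then looked up in the other replicate, by the same positions that had chosen them, so the result is a description. Of the 178 members of replicate 1, 162 (91.0%, Wilson interval 85.9 to 94.4) overlapped a replicate 2 peak by at least 1 bp, against 86.8% of all replicate 1 peaks. They met 149 distinct replicate 2 peaks, and for 155 of the 162 the partner was itself clustered and interior. Over all 380 replicate 1 peaks, 330 were shared and 190 had such a partner. A member has a close neighbour by the rule, and most members were shared, so the rule itself favours a clustered partner. Of the 126 isolated peaks of replicate 1, 104 (82.5%, Wilson interval 74.98 to 88.2) met a replicate 2 peak, which was clustered for 35 and isolated for 69. From replicate 2, 186 of 379 members (49.1%, Wilson interval 44.1 to 54.1) met a replicate 1 peak, against 29.4% of all replicate 2 peaks. For these members the partner was clustered in 146 cases and isolated in 40. Of the isolated peaks of replicate 2, 74 of 462 (16.0%, Wilson interval 12.96 to 19.6) met a replicate 1 peak. The replicate 1 list had 380 peaks and the replicate 2 list 1096, so the shares from each replicate are not on equal terms. With the 380 best ranked peaks of each, 67.4% of replicate 1 and 70.1% of replicate 2 members were shared. The Wilson intervals treat peaks as independent and cover counting error only.

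Sharing moved with tag density in replicate 2, and among isolated but not clustered peaks of replicate 1. In windows of at least 4 times the mean, 90.7% of 162 clustered and 94.0% of 50 isolated peaks of replicate 1 were shared, and 53.0% of 300 clustered and 46.2% of 65 isolated peaks of replicate 2, against 91.0% and 52.5% of all peaks in such windows in replicates 1 and 2. Below that density, 15 of 16 clustered and 57 of 76 isolated peaks of replicate 1 were shared (93.8% and 75%), and 27 of 79 clustered and 44 of 397 isolated peaks of replicate 2 (34.2% and 11.1%), against 79.4% and 14.96% of all peaks there. In dense windows the Wilson intervals of both classes overlapped, with 85.3 to 94.3% for clustered and 83.8 to 97.9% for isolated peaks in replicate 1, and 47.4 to 58.6% for clustered and 34.6 to 58.1% for isolated peaks in replicate 2. Below that density they overlapped in replicate 1, with 71.7 to 98.9% for clustered and 64.2 to 83.4% for isolated peaks. They lay apart in replicate 2, with 24.7 to 45.2% for clustered and 8.36 to 14.6% for isolated peaks. Peaks of the same cluster are not independent, so these intervals can be too narrow. Their overlap or separation is no test of the classes. Shared members were taller than unshared ones, with a median of 36 against 29 tags in replicate 1 and 44 against 29 tags in replicate 2.

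The arrangement of summits within clusters was compared in the same way. Of the 116 neighbouring pairs of replicate 1, 85 (73.3%) met 2 different peaks of replicate 2, and in 13 both peaks met the same one. Over the 85 pairs, the distance between summits differed between replicates by a median of 39 bp (quartiles 13 and 111), and by at most 50 bp in 47. Both peaks of each such pair overlap their partners, and that condition itself limits how far the distances can differ. The small difference is therefore no separate measure of how well the arrangement repeats. Of the 257 neighbouring pairs of replicate 2, 68 (26.5%) met 2 different peaks of replicate 1, 110 had a partner for 1 peak only and 72 had none. All 62 clusters of replicate 1 met at least 1 replicate 2 peak and 51 met 2 or more. Of the 122 clusters of replicate 2, 50 met 2 or more, 39 met 1 and 33 met none. The lists differ in length, so the counts of pairs and clusters from each replicate are not on equal terms. The 16 unshared members of replicate 1 lay a median of 153 bp from the nearest replicate 2 peak, and the farthest lay 3161 bp away. For the 22 unshared isolated peaks of replicate 1 the median was 781271 bp. By the rule, a member had another peak of its own replicate nearby and an isolated peak had none. Most members met a replicate 2 peak, so the rule itself tends to place such peaks close to unshared members. The contrast of these medians is therefore no measure of how well the classes repeat. The 193 unshared members of replicate 2 lay a median of 5646 bp from the nearest replicate 1 peak (quartiles 707 and 701346).

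Over the 162 members of replicate 1 with a partner, pileup had a median of 36 tags in replicate 1 and 44 tags in replicate 2. The ratio of replicate 1 to replicate 2 had a median of 0.839 (quartiles 0.705 and 1.02), below the depth ratio of 0.917. It was under 1 in 114 pairs, above 1 in 43 and equal to 1 in 5. The 162 members met 149 distinct replicate 2 peaks, and members with the same partner were each divided by its pileup. At chr7:66048528 this gives 34 over 73 tags. How far this lowers the median was not tested. The order of heights was alike (Spearman rho 0.846 over the 162 pairs, as a description across sites that share libraries, clusters and in part the same partner peak). For the 104 shared isolated peaks of replicate 1 the median ratio was 0.876 and rho was 0.882.

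**Figure D4:**
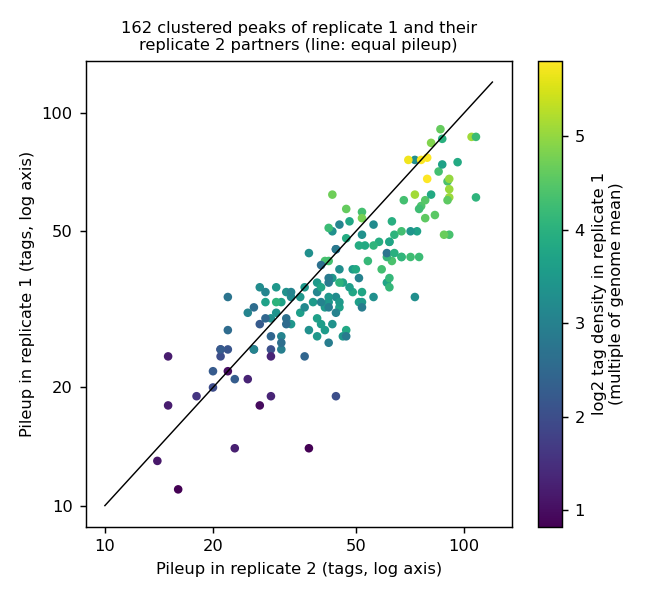
Pileup in tags of the 162 clustered interior peaks of replicate 1 that met a replicate 2 peak (y axis, log scale) against the pileup of that partner (x axis, log scale), coloured by log2 of the tag density in replicate 1 as a multiple of the genome mean. Of the 162 points, 114 lie under the line of equal pileup and 43 above it.

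When the members of both replicates were chained together they gave 126 joint clusters. Of these, 57 on 22 chromosomes held members of both replicates, 4 held members of replicate 1 only and 65 held members of replicate 2 only. Each of the 4 also contained a replicate 2 peak. The 57 held 169 of the 178 members of replicate 1 and 225 of the 379 of replicate 2. They had more members from replicate 2 in 28, more from replicate 1 in 9 and equal numbers in 20. Of the 65, 32 contained a replicate 1 peak and 33 did not, and these 33 held 74 members. Of the 193 members of replicate 2 without a partner, 76 lay in the clusters held by both replicates, which replicate 1 also had.

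The joint clusters with members of replicate 2 alone were lower by their medians. Their 154 members had a median pileup of 23 tags and a median density of 5.62 times the mean, against 45 tags and 16.4 times for the 225 replicate 2 members in clusters of both. The largest ones with no replicate 1 peak differed in height. At chr17:47998059-47999109 the 4 peaks had 51, 43, 54 and 52 tags, in windows of 19.8 to 21.3 times the mean. At chr21:25219715-25221241 the 4 peaks had 21, 25, 25 and 24 tags. The 3 peaks at chr4:28178764-28192265 had 36, 45 and 52 tags, those at chr6:25974138-25974925 had 22, 24 and 26 tags, and those at chr1:26329839-26330763 had 19, 20 and 18 tags. A further cluster of 3 peaks, at chr13:19211773-19221152, tied with the last ones and had 23 to 30 tags. The widest joint cluster, at chr10:16773761-16812538, spanned 38778 bp with 10 members in replicate 2 and 2 in replicate 1, where a further peak did not meet the rule. At chr16:28154783-28179380, the third widest, replicate 2 had 9 members and replicate 1 had 2.

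Joint clusters with every member under 4 times the mean had 2 or 3 members in a replicate. At chr19:13956154-13957379 the 4 replicate 2 members were also under it, at 3.83 to 3.90 times. The 3 replicate 1 members there had 4.71 to 4.81 times, so that cluster is not counted next. In 35 of the 126 joint clusters every member was under 4 times the mean, and 7 of these held members of both replicates, 27 of replicate 2 only and 1 of replicate 1 only. The 7 were picked out after their values were seen. At chr1:14913087-14914555 the 2 peaks had 18 and 24 tags in replicate 1 and 15 and 15 tags in replicate 2, at 1.86 to 2.33 times the mean. At chr7:44647995-44648495 they had 22 and 18 tags in replicate 1 and 22 and 27 tags in replicate 2, with fold enrichments from 9.17 to 12.1. At chr16:11041671-11042360 they had 14 and 11 tags in replicate 1 and 37 and 16 tags in replicate 2. The others were at chr4:32479382-32479958, chr5:37592766-37593456, chr9:5774733-5775335 and chr17:42720848-42724725, with pileups from 13 to 25 tags.

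Clustered peaks were unevenly spread over the chromosomes. Chromosome 8 had the most in both replicates, 22 in 7 clusters in replicate 1 and 45 in 12 clusters in replicate 2, which is 0.483 and 0.988 per Mb of interior. Chromosome 2 had 18 and 40 members (0.381 and 0.847 per Mb), chromosome 10 had 15 and 23 (0.417 and 0.639 per Mb), chromosome 7 had 21 and 32 (0.318 and 0.485 per Mb) and chromosome 4 had 13 and 35 (0.253 and 0.682 per Mb). Chromosomes 2, 7 and 8, which had the most members in replicate 1, held 34.3% of its members and 30.9% of those of replicate 2, where chromosomes 2, 4 and 8 had the most. They held 27.3% of all interior peaks of replicate 1 and 22.4% of those of replicate 2, on 14.7% of the interior length. Chromosomes 6, 18 and 25 had no member in replicate 1 and 5, 3 and 4 members in replicate 2. Chromosome 14, with 5 members in replicate 1 and 3 in replicate 2, had fewer in the longer list. These numbers count peaks, and a single cluster adds many at once.

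**Figure D5:**
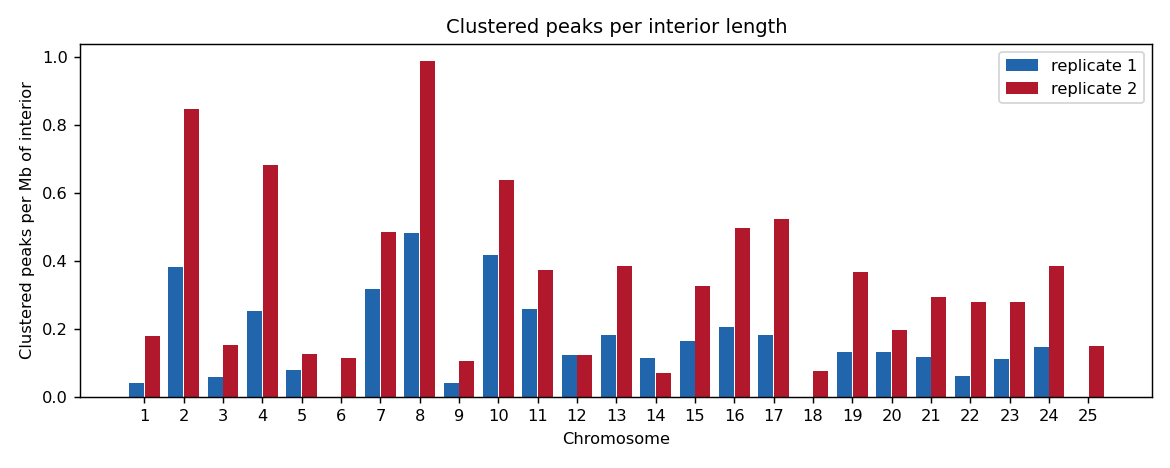
Clustered interior peaks per Mb of interior (y axis, starting at 0) for chromosomes 1 to 25 (x axis), with replicate 1 in blue and replicate 2 in red. Chromosome 8 has the highest bar in both replicates, 0.483 and 0.988 per Mb.

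The limits of the rule cut through some groups of peaks. The member farthest from its neighbour was 9906 bp away in replicate 1, where chr16:20289285 and chr16:20299191 had 33 and 62 tags. In replicate 2 the same places were 10042 bp apart, with 30 and 43 tags, and fell just outside. The isolated peak nearest to the limit in replicate 1, at chr8:36441834, had 28 tags and a neighbour 10147 bp away, and the farthest pair in replicate 2 was 9972 bp apart, with 17 tags at chr17:46654965. At the 5 Mb limit, the peak at chr7:70993783 lay 5000639 bp from the chromosome end in replicate 1, with 24 tags, and its neighbour at chr7:71002511 lay 4991956 bp from that end and so outside the interior, with 32 tags. In replicate 2 the same sites had 36 and 32 tags.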

How the data were processed

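ATAC-seq peaks of 2 wild-type libraries were analysed, each table apart. Per the file headers, the authors called peaks with MACS 2.1.1.20160309 on 1 alignment at a time, with tags extended by 147 bp, at most 1 tag kept per position, no control and a q cut-off of 0.01. Bowtie2 2.2.1 and Zv9 are named in the submitters' processing notes. The deposited pileup is a coverage signal in tags, not scaled to depth, and the deposited fold enrichment is the ratio of pileup to the local 10 kb tag density. The deposited −log10 p and −log10 q values come from MACS, and q served only to rank peaks for alternatives. With 1 tag per position and extension without a shift, the tallest pileups are held down and summits are imprecise. Replicate 1 had 15112091 tags and replicate 2 had 16258120, of which 33.9% and 34.4% were kept, which limits what weak peaks can show.

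Tags in 10 kb were computed as (pileup + 1) / fold enrichment − 1, divided by 147 and multiplied by 10000. For 379 of 380 and 1095 of 1096 peaks this gave a whole number to within 0.01 or the genome mean itself, the lowest value MACS uses. Peaks sharing at least 1 bp were partners, the one with most overlap being taken. Named regions were, by rule, the 12 joint clusters with most members in the replicate that had fewer. The 5 largest found in 1 replicate only were added (there were none for replicate 1). So were the 3 longest members and widest clusters, and those at the limits of the rule. The 10 highest shared members were taken from replicate 1 members whose replicate 2 partner was also a member. The members, lists and rules were chosen with earlier results of these data known. No test was made: peaks are not replicates and there is 1 group. Shares carry Wilson intervals at 95%. Classification and overlap were tested on simulated peaks. Tables were handled with pandas 2.3.3 and numpy 2.4.6 under Python 3.11.15, intervals came from scipy 1.17.1 and figures from matplotlib 3.10.9.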

Additional observations from a re-analysis of the deposited data

How the results depend on the processing

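Values here are means of both replicates. The clustered share, 40.7%, was 24.6% with neighbours within 1 kb and 24.1% with peaks within 1 kb merged first. The SD between replicates rests on 2 values and was only 0.707 tags for pileup and 3.18 bp for length. Moving beyond it can therefore be a small shift. Median pileup (35.5 tags), length (196 bp), spacing (921 bp) and tag density (10.8 times the mean) moved as follows, beyond the SD between replicates. With neighbours within 1 kb they were 32.8 tags, 189 bp, 396.5 bp and 8.57 times, with 5 kb length was 192.5 bp and spacing 654 bp, and with 20 kb spacing was 1267 bp and density 10.3 times. Interior from 2.5 Mb gave 10.05 times, and from 10 Mb 37 tags, 204.5 bp and 11.6 times. The better ranked 50% gave 44.5 tags, 230.5 bp, 1287.5 bp and 11.8 times, and merging 42.5 tags, 254.5 bp, 4452.5 bp and 15.3 times. Tables of equal length gave 42 tags, 216 bp, 1142 bp and 12.9 times. In these measures the replicates then lay further apart than with the full tables. Replicates 1 and 2 had 35 and 49 tags, 198.5 and 234 bp, 869 and 1414.5 bp, and 11.1 and 14.7 times. Replicate 1 keeps all its peaks in that setting, so its values do not change. Each setting changes which peaks enter by construction, and the cause was not tested further. The shared share, 70.0%, moved less than its SD of 29.7 points in every alternative run. That SD is the spread of 91.0% and 49.1%, from lists of 380 and 1096 peaks. It is so wide that moving less is no check of stability. With equal table lengths the share was 67.4% of replicate 1 and 70.1% of replicate 2 members. Of 57 values from settings that keep both replicates, 31 moved less than the SD, among them all those of the shared share. Each SD rests on 2 values, so that count is no check of stability. Without each replicate in turn, which gives the other replicate's own value and is no check of stability, the clustered share ranged from 34.6 to 46.8%, the shared share from 49.1 to 91.0%, pileup from 35 to 36 tags, length from 194 to 198.5 bp, spacing from 869 to 973 bp and density from 10.5 to 11.1 times. No paired analysis was possible because all samples belong to 1 group.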
